A study of Mus musculus with 2 samples.

Results

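Purkinje cell rich spots of the cerebellum around breast cancer brain metastases (BCBM) were examined in 2 spatial transcriptomics sections, each a 5-µm slice of fixed mouse cerebellum read on a grid of capture spots. A spot is a small region of tissue that can hold several cells or parts of cells. Within each section, spots under tissue with at least 2000 UMIs (unique molecular identifiers, the counted RNA molecules) were ranked by the summed level of Pcp2, Calb1 and Car8 as CPM, a gene's counts scaled to a common total of UMIs per spot. The top 10% of each section were kept unless they also fell in the top 15% by the summed level of Gabra6, Cbln3 and Neurod1, which mark granule neurons. This rule gave 398 Purkinje-rich spots among 7423 spots under tissue, 159 of 3406 in section 1 and 239 of 4017 in section 2. They were compared with the other spots of the same section that held at least 500 CPM of Snap25, a synaptic protein gene of neurons, which numbered 1977 and 2323. The Snap25 limit was set for the comparison spots alone, and 35 Purkinje-rich spots of section 1 and 15 of section 2 were below it.

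Both sections came from the untreated cerebellar BCBM model of the study and are labeled with the HP genotype, as biological replicates. HP stands for activating mutations in HER2 and PIK3CA, HER2 being a human transgene behind a stop cassette under an actin promoter. Tumors were started in the mammary gland of B6 mice by Cre adenovirus and grown as organoids. In the paper's model these were injected into the cerebellum of other, syngeneic B6 mice. HP is thus the genotype of the tumor cells, and the paper does not describe the recipient mice, whose Purkinje cells are read here, as carrying it. The titles name section 1 HP-F1 +cre and section 2 HP-B6 +cre, and the sources used here do not state what else separates them. No section without a tumor is part of the series, so every Purkinje-rich spot lay in a brain that carried a metastasis. The sections held 63986887 and 71878333 UMIs, with medians of 9734 and 12390 UMIs per spot.

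Purkinje cells are the large GABAergic neurons whose bodies form a thin layer between the granule layer and the molecular layer of the cerebellar cortex. Their dendrites fill the molecular layer, receive parallel fiber input from granule neurons and climbing fiber input from the inferior olive, and signal through glutamate receptors and an internal calcium store. Their axons are the sole output of the cortex. Bergmann glia, whose bodies sit beside those of Purkinje cells, and the inhibitory interneurons of the molecular layer share this territory, and a capture spot over the Purkinje layer can read several cell types.

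The ranking values of the spots are given here as a description, since the spots were chosen by them. The summed level of the 3 ranking genes ran from 1875 CPM in the lowest Purkinje-rich spot of section 1 through a median of 2799 to a highest of 9943, and from 3660 through 5543 to 22124 in section 2. In the other neuronal spots the median was 191 CPM in section 1 and 189 in section 2. The ranking threshold cut through a continuous range, with 1872.0 CPM in the last spot of the top 10% and 1859.9 in the first spot below it in section 1, and 3651.4 against 3630.1 in section 2. The threshold of section 2 was thus higher than the median Purkinje-rich spot of section 1, and the spots of the sections are not cut at the same level.

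Of the top 10%, 157 of 316 spots in section 1 (49.7%) and 151 of 390 in section 2 (38.7%) were left out because they were also rich in granule neuron genes. Those left-out spots with enough Snap25 stayed in the comparison group, whose highest ranking sums reached 10214 and 13560 CPM. All 3 ranking genes had at least 1 UMI in 139 of the 159 Purkinje-rich spots of section 1 and in 237 of the 239 of section 2. Section 1 also held 8 Purkinje-rich spots without a Pcp2 UMI and 4 whose only ranking gene was Calb1, none of which had a UMI of Itpr1. The library of section 1 was the shallower in these spots, with a median of 5123 UMIs against 11993 in section 2, while the other neuronal spots had medians of 8230 and 10060.

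The ranking genes themselves stood well apart between the classes, as the rule required. Pcp2, which encodes a regulator of G protein signaling in Purkinje cells, had medians of 866 CPM in the Purkinje-rich spots of section 1 and 1088 in section 2, against 0 in the other neuronal spots of both. Calb1, the calcium buffer calbindin, had medians of 939 and 1894 CPM, and Car8, a protein that binds the inositol trisphosphate receptor, 1146 and 2603 CPM. When the spots were ranked by the other 2 genes alone, each gene could be read in spots it had not chosen. Pcp2 was then 4.86-fold higher in the Purkinje-rich spots of section 1 and 4.43-fold in section 2, Calb1 4.92- and 5.70-fold, and Car8 5.26- and 6.57-fold. Of the spots chosen without Pcp2, 131 of 143 and 217 of 225 were also Purkinje-rich by all 3 genes.

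The promoters of Pcp2 and of Homer3, the gene of the Purkinje list described below with the largest fold change, are shown because Pcp2 was a ranking gene, Homer3 led that list, and both hold the letters AGGTCA on either strand, a motif bound by nuclear receptors such as RORα, the product of the Purkinje gene Rora. Each is the 250 bases before the RefSeq gene start in GRCm38.p6, 5′ to 3′ on the strand of the gene, with the match in capitals. The Pcp2 window is chr8:3625548-3625797 on the minus strand and the Homer3 window chr8:70282749-70282998 on the plus strand.
Pcp2: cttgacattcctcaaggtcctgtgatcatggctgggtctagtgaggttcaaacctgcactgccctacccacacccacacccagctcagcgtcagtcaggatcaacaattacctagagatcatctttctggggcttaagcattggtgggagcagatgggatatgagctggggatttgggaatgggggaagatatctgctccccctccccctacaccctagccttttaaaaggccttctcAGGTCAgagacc
Homer3: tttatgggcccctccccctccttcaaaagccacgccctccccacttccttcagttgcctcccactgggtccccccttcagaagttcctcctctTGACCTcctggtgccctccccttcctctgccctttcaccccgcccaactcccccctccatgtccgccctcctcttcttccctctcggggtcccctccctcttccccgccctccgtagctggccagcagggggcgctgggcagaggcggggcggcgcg
The motif was present in the windows of 13.8% of 27025 promoters and in 4 of the 13 promoters found for the ranking genes and the Purkinje list. A match is a description of the letters and was not tested as a site.

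In the tissue, Purkinje-rich spots lay beside one another and beside granule-rich spots, the spots of the top 15% by granule genes with enough Snap25, which numbered 433 and 576. Of all contacts between a Purkinje-rich spot and a neighbor on the grid, 41.3% in section 1 and 44.6% in section 2 were with another Purkinje-rich spot and 28.2% and 29.6% with a granule-rich spot. The granule-rich class included spots of the top 10% by the ranking genes that the rule had left out for their granule genes. The part of this split in the contacts between the classes was not tested. Contacts with the remaining neuronal spots, 1544 and 1747 spots of neither class, made up 15.3% and 19.3%, although these were the largest neuronal class. Seen from the other side, 10.4% and 12.1% of the contacts of granule-rich spots were with a Purkinje-rich spot, against 1.57% and 2.64% of those of the remaining neuronal spots. Another Purkinje-rich spot touched 81.1% of the Purkinje-rich spots of section 1 and 95.8% of those of section 2. In section 2 they traced thin folded bands, and in section 1 a broader block with scattered spots.

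**Figure D1:**
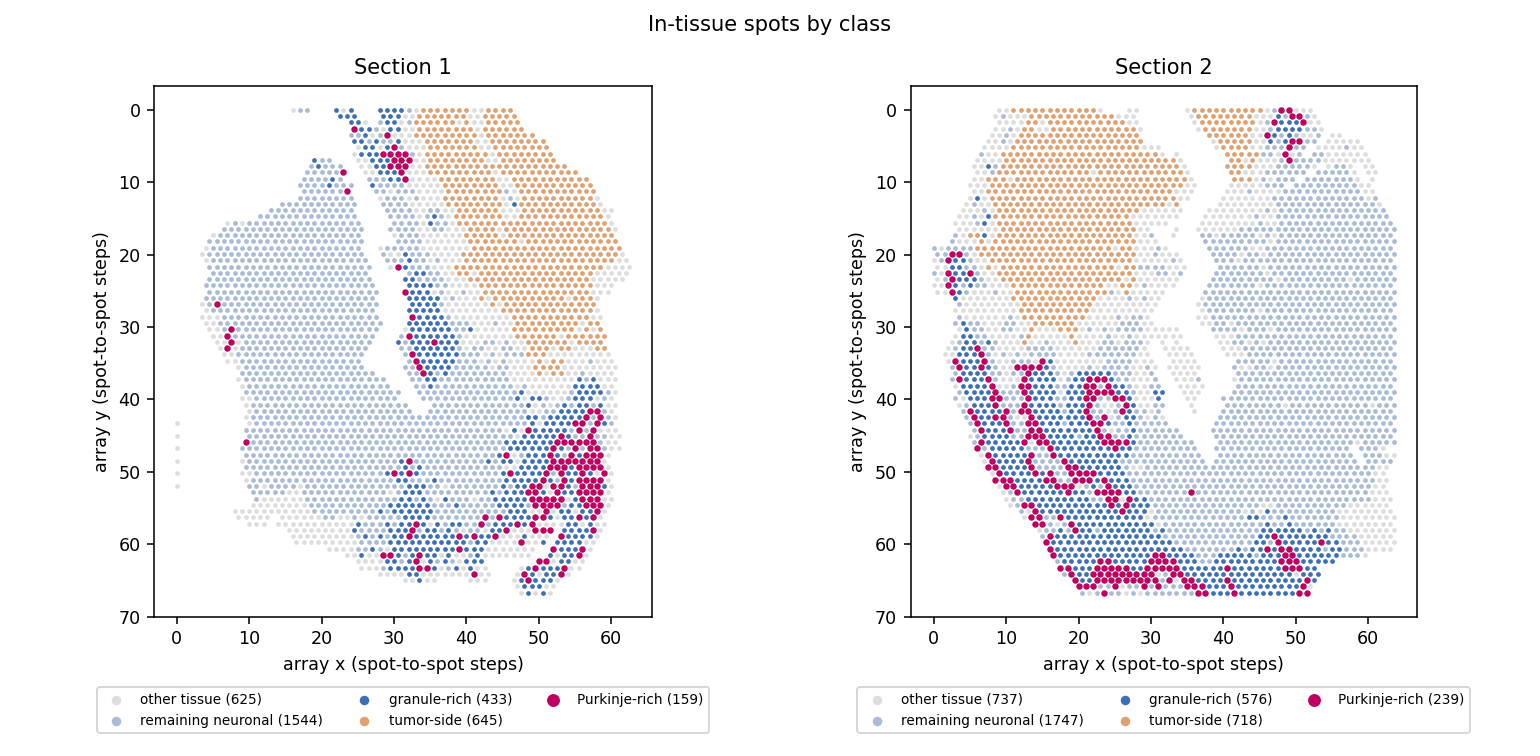
Positions of the spots of sections 1 and 2 on the capture grid (horizontal and vertical position in spot-to-spot steps), colored by class: Purkinje-rich, granule-rich, remaining neuronal, tumor-side and other tissue. The 239 Purkinje-rich spots of section 2 form thin bands along granule-rich tissue, and the 159 of section 1 form a broader block with scattered spots. Granule-rich spots include spots rich in the ranking genes that the rule left out for their granule genes.

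The label of the spots was checked with a list of 23 further Purkinje genes that did not enter the ranking. Their levels come from the same spots as the ranking, so a gene of the same cells is tied to the choice, and the values describe what the chosen spots held rather than standing as independent evidence. UMIs were summed by section and class, and a gene was called at an adjusted p under 0.05 in edgeR's quasi-likelihood test with section as a block, over 18899 genes. Of all genes, 10.7% were called, 5.06% higher and 5.66% lower in the Purkinje-rich spots, 957 and 1069 genes. In the Purkinje list, 21 of 23 genes were called higher and 0 lower, with a median log2 fold change of 1.93 against -0.03 over all genes. Foxp2, a transcription factor and 1 of the 2 that did not pass, had a log2 fold change of 0.75 (adjusted p = 0.16). The 2 sections are the only replicates, and the p-values rest on a spread between these libraries that is shared across genes and may in part be technical. Each standard error (SE) below comes from the same fit. It can be far smaller than the difference between the 2 sections for a gene.

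Homer3, a scaffold of the postsynaptic side of the synapse, was measured at 428 CPM in the summed Purkinje-rich spots of section 1 against 63.2 CPM in its other neuronal spots, and at 420 against 57.7 CPM in section 2. Its log2 fold change was 2.81 ± 0.17 (SE, n = 2 sections, adjusted p = 2e-19). Itpr1, the inositol trisphosphate receptor that Car8 binds, stood at 1953 against 285 CPM and 2734 against 398 CPM, a log2 fold change of 2.78 ± 0.21 (adjusted p = 4.2e-16). Both genes were higher in the Purkinje-rich spots of both sections by similar factors. The median spot held 2342 and 2556 CPM of Itpr1 in the Purkinje-rich classes of sections 1 and 2 and 84.9 and 94.6 CPM in the other neuronal classes. At least 1 UMI of Itpr1 was found in 95.6% and 100% of the Purkinje-rich spots, and in 56.1% and 61.2% of the others.

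Ppp1r17, a phosphatase inhibitor and substrate of cyclic GMP-dependent kinase, was at 250 against 39.6 CPM in section 1 and 386 against 56.0 CPM in section 2, a log2 fold change of 2.73 ± 0.17. Gng13, a G protein subunit, was at 1402 against 295 CPM and 1554 against 287 CPM (2.34 ± 0.20). Both stood higher in the Purkinje-rich spots of each section. Slc1a6, the glutamate transporter of Purkinje spines, was at 234 against 54.6 CPM and 418 against 81.1 CPM (2.24 ± 0.17). Other transcription factors of the list rose, Rora by 1.65 ± 0.17, Lhx1 by 1.72 ± 0.18, Lhx5 by 1.68 ± 0.20 and Skor2 by 1.76 ± 0.31 on the log2 scale.

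**Figure D2:**
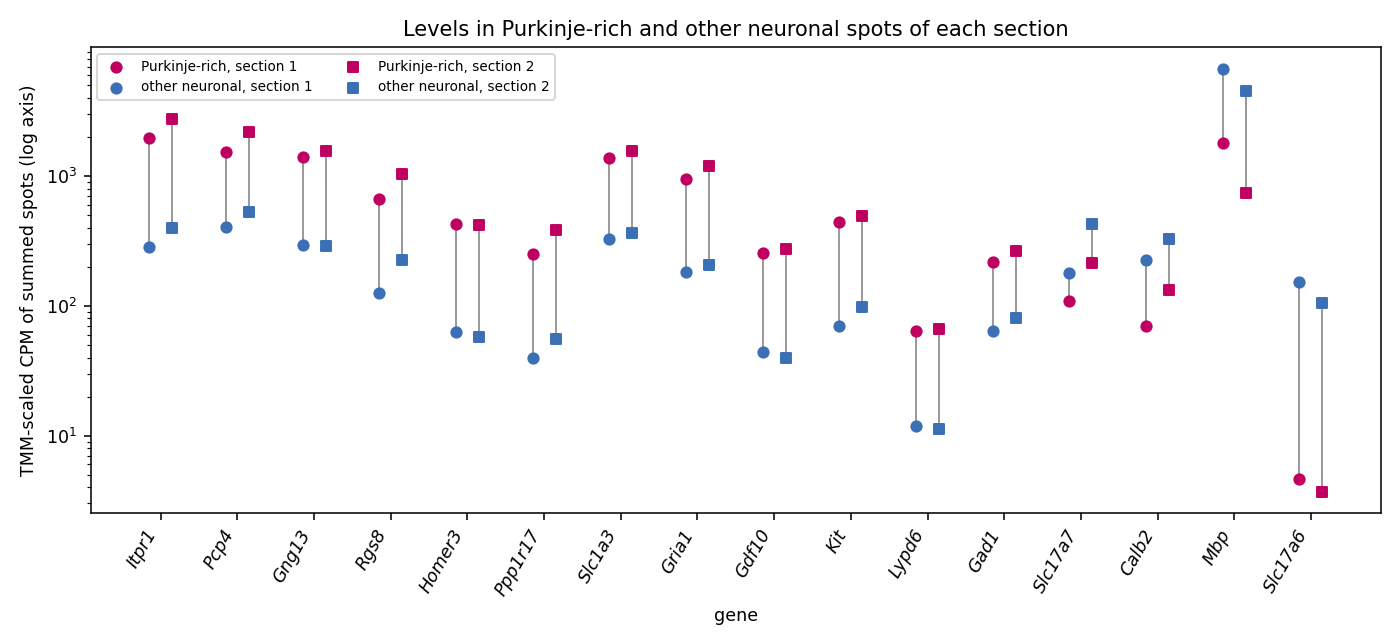
Levels of Purkinje, Bergmann glia, interneuron, granule and oligodendrocyte genes in the summed Purkinje-rich and other neuronal spots of sections 1 and 2, in CPM on a log axis, with 1 point per section and class. The points of Homer3 sit at 428 and 420 CPM in Purkinje-rich spots and at 63.2 and 57.7 CPM in other neuronal spots, and those of Mbp lie the other way round.

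The signaling machinery of the Purkinje dendrite moved in the same direction. Of 24 genes for calcium signaling, 17 were called higher and 0 lower, with a median of 0.85. Atp2a3, a calcium pump of the store, was at 170 against 35.6 CPM in section 1 and 404 against 78.6 CPM in section 2 (log2 fold change 2.31 ± 0.16). Pvalb, a calcium buffer shared with interneurons, was at 4075 against 1495 CPM and 5054 against 1613 CPM (1.55 ± 0.22). The 2 phospholipase C genes that mark alternate zebrin stripes of Purkinje cells differed in size, Plcb3 at 109 against 25.3 CPM and 107 against 36.3 CPM (1.80 ± 0.16) and Plcb4 at 162 against 140 CPM and 405 against 225 CPM (0.56 ± 0.17, adjusted p = 0.023). Of the 6 zebrin stripe genes tested, 5 were called higher, among them Aldoc, the zebrin II antigen, at 0.99 ± 0.22.

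Among 13 genes of the parallel fiber synapse, 8 were called higher and 1 lower. Shank2, a scaffold gene of excitatory synapses, rose by 2.45 ± 0.17 on the log2 scale. Cbln1, a synapse organizer secreted by granule neurons, did not pass, at -0.46 (adjusted p = 0.10). The gene that fell was Arc, a neuronal activity gene, at 13.9 against 27.3 CPM and 9.40 against 38.7 CPM (-1.66 ± 0.25). For GABA synthesis and inhibition, 6 of 10 genes were called higher and 0 lower, led by Gad1, which makes GABA, at 216 against 64.4 CPM and 264 against 80.5 CPM (1.73 ± 0.16).

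Of 13 genes for channels and scaffolds of fast firing, 4 were called higher and 2 lower. Kcnc1, a potassium channel, fell by 0.68 ± 0.17 on the log2 scale and Scn4b, a sodium channel subunit, by 1.23 ± 0.23. The comparison spots, chosen for Snap25, had medians of 2015 and 1907 CPM of it in sections 1 and 2. Purkinje-rich spots had 844 and 1060 CPM. The part of this choice in falls of neuronal genes, here and below, was not tested. Of 20 genes whose mutations cause spinocerebellar ataxias, 8 were called higher and 2 lower, with a median of 0.19. Among those higher were Itpr1, Cacna1g, Kcnd3 and Cacna1a, and those lower were Elovl4 and Ppp2r2b.

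The neighbors of Purkinje cells were read in the same spots. All 8 Bergmann glia genes tested were called higher, with a median of 1.65. Gdf10, a growth factor of the TGF-β family made by Bergmann glia, was at 257 against 43.8 CPM in section 1 and 275 against 39.8 CPM in section 2 (2.68 ± 0.16), and Slc1a3, the glial glutamate transporter, at 1382 against 328 CPM and 1576 against 365 CPM (2.09 ± 0.20). Both were higher in each section. Of 5 genes of molecular layer interneurons, 4 were called higher, among them the receptor kinase Kit at 444 against 70.1 CPM and 493 against 98.1 CPM (2.49 ± 0.17). Nxph1, the remaining gene, did not pass at 0.19 (adjusted p = 0.69). Among 9 astrocyte genes 3 rose and 1 fell.

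Genes of white matter stood on the other side. All 12 oligodendrocyte genes tested were called lower, with a median of -2.16. Mbp, myelin basic protein, was at 1788 against 6753 CPM in section 1 and 741 against 4541 CPM in section 2 (-2.27 ± 0.23). Of 13 granule neuron genes tested, 4 were called lower and 0 higher (median -0.34), and this direction is tied to the rule, which removed granule-rich spots. Slc17a7, the vesicular glutamate transporter of granule neurons, was at 109 against 180 CPM and 215 against 428 CPM (-0.87 ± 0.17), and its sign turned to 0.17 when no spot was left out for granule genes. The whole list then had 7 of 13 genes called higher and 0 lower (median 0.73), and 3 higher and 3 lower when every spot was thinned to 2000 UMIs. Lists for macrophages, vessels and T cells had 0 of 9, 0 of 7 and 0 of 5 genes called in either direction, where 10.7% of all genes were called. Summed macrophage genes were at 1071 against 1104 CPM in section 1 and 619 against 1871 CPM in section 2. Of 10 tumor epithelium genes 1 was called higher and 5 lower, with sums of 38.0 against 30.6 CPM and 189 against 362 CPM. Lower calls also numbered 2 of 6 fibroblast and 1 of 8 microglia genes, with 0 higher in either list.

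The 5 genes with the largest rise, by the rule for named genes, were Reg3b, Arhgef33, Homer3, Itpr1 and Itpka. Arhgef33, a guanine nucleotide exchange factor, was at 483 against 64.3 CPM in section 1 and 568 against 84.1 CPM in section 2 (2.83 ± 0.18), and Itpka, a kinase of inositol trisphosphate, at 148 against 21.8 CPM and 137 against 21.04 CPM (2.73 ± 0.16). Reg3b, a secreted lectin known from injured gut and pancreas, was at 26.9 against 2.77 CPM and 132 against 16.8 CPM (3.05 ± 0.19, adjusted p = 1.1e-18), and without the section as a block its adjusted p was 0.78. Its 394 UMIs in section 2 came from 35.1% of the Purkinje-rich spots, whereas its 29 UMIs in section 1 came from 4.40% of them. All 29 lay in the 13 Purkinje-rich spots at 3 to 5 grid steps from the tumor side.

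The 5 genes with the largest fall were Slc17a6, Meis2, Sst, Ndst4 and Sncg, and each was low in the Purkinje-rich spots. Slc17a6, the vesicular glutamate transporter of brainstem and deep nuclear neurons, was at 4.64 against 153 CPM in section 1 and 3.69 against 105 CPM in section 2 (-4.90 ± 0.25). Meis2, a homeobox factor, was at 11.1 against 103 CPM and 2.01 against 62.6 CPM (-4.01 ± 0.27), and Sncg, gamma-synuclein, at 12.99 against 92.9 CPM and 6.38 against 108 CPM (-3.60 ± 0.24). Sst, somatostatin, rested on 2 UMIs in the Purkinje-rich spots of section 1, where the other neuronal spots were 29.9-fold higher (95% counting interval 8.25 to 247), and was at 4.70 against 47.4 CPM in section 2. Ndst4, an enzyme of heparan sulfate, rested on 3 UMIs there, with a ratio of 7.23 (2.46 to 35.2), and was at 1.68 against 28.2 CPM in section 2. These intervals cover counting error only.

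Granule-rich spots, the closest class in place, were compared with the Purkinje-rich spots in a fit with the remaining neuronal spots as a separate class. The granule-rich class included spots rich in the ranking genes that had been left out of the Purkinje-rich class for their granule genes. Of 18756 genes, 9.28% were called, 6.1% higher and 3.18% lower in the Purkinje-rich spots, 1144 and 596 genes. Scaling by library size alone moved the median of all genes from -0.11 to -0.30 and gave 551 higher and 893 lower calls. In the Purkinje list, 18 of 23 genes were called higher and 0 lower, with a median of 1.15 against -0.11 over all genes. Without the section as a block 6 of 23 passed. With the left-out spots moved to the Purkinje-rich class, the granule-rich spots fell from 433 to 288 in section 1 and from 576 to 427 in section 2. The Purkinje list then had 20 of 23 genes called higher and 0 lower, with a median of 1.75. Homer3 was at 431 against 118 CPM in section 1 and 424 against 96.4 CPM in section 2 (2.01 ± 0.20), and Itpr1 at 1969 against 673 CPM and 2755 against 695 CPM (1.75 ± 0.22). Plcb4 was at 164 against 189 CPM and 409 against 372 CPM, with a log2 fold change of -0.00 ± 0.21.

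Genes of molecular layer interneurons and Bergmann glia were higher in the Purkinje-rich than in the granule-rich spots. All 5 interneuron genes were called higher, Lypd6, a modulator of nicotinic receptors, at 64.5 against 16.5 CPM in section 1 and 67.0 against 12.3 CPM in section 2 (2.22 ± 0.24, adjusted p = 7e-09), Sorcs3, a sorting receptor, at 99.2 against 27.6 CPM and 108 against 24.0 CPM (2.02 ± 0.21) and Nxph1, which had not passed against all neuronal spots, at 61.7 against 24.2 CPM and 50.8 against 19.0 CPM (1.38 ± 0.22). Frmpd4, a scaffold of dendritic spines, was at 179 against 45.4 CPM and 142 against 26.6 CPM (2.18 ± 0.22). All 8 Bergmann glia genes rose again, with a median of 1.34. In the astrocyte list 4 of 9 genes rose, S100b by 1.70 ± 0.21, and in the vascular list 4 of 7 rose, Cldn5, Flt1, Pecam1 and Slco1a4, by 0.64 to 0.86. Reg3b was at 27.1 against 4.29 CPM and 133 against 36.6 CPM (2.08 ± 0.27), a call lost without the spots within 5 steps of the tumor side (adjusted p = 0.56).

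In the other direction, 11 of 13 granule neuron genes were called lower, with a median of -1.42, which the rule's own use of granule genes favors. Cbln1 was at 247 against 615 CPM in section 1 and 516 against 1474 CPM in section 2 (-1.42 ± 0.30), and Slc17a7 at 110 against 383 CPM and 216 against 696 CPM (-1.75 ± 0.21). Eomes, the transcription factor of unipolar brush cells, which lie in the granule layer, was at 5.61 against 22.9 CPM and 5.42 against 22.5 CPM (-2.00 ± 0.37). Slit3, a guidance cue, fell by 2.07 ± 0.33 on the log2 scale, Cacna1i, a calcium channel, by 1.71 ± 0.25 and Ppfia4, an organizer of the presynaptic terminal, by 1.69 ± 0.24. Of 12 oligodendrocyte genes, 9 were called lower, and 0 of 12 when the top 20% of spots were ranked.

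Against the remaining neuronal spots, 14.3% of the 18756 genes were called, 5.69% higher and 8.56% lower, 1067 and 1606 genes, and scaling by library size alone gave 1179 higher and 1155 lower. The Purkinje list again had 21 of 23 genes higher and 0 lower, with a median of 2.60. Ppp1r17 was at 253 against 13.8 CPM in section 1 and 389 against 14.4 CPM in section 2 (4.49 ± 0.22), and Itpka at 149 against 10.0 CPM and 138 against 9.70 CPM (3.86 ± 0.22). Gdf10 was at 259 against 16.6 CPM and 278 against 16.7 CPM (4.02 ± 0.22). All 3 were at under 17 CPM in the remaining neuronal spots of both sections. Iltifb, a copy of the interleukin-22 gene whose probes may also read that gene, was at 54.3 against 4.71 CPM and 55.8 against 3.02 CPM (3.88 ± 0.27). Reg3b was also among the 5 largest rises, at 27.1 against 2.28 CPM in section 1 and 133 against 5.86 CPM in section 2 (4.16 ± 0.31).

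Granule neuron genes were higher in Purkinje-rich than in the remaining neuronal spots, with 7 of 13 called higher and 0 lower and a median of 1.13. Gabrd, a GABA receptor subunit of granule neurons, was at 45.8 against 15.7 CPM in section 1 and 124 against 29.0 CPM in section 2 (1.83 ± 0.22), and Zic1, a transcription factor of granule neurons, at 328 against 119 CPM and 522 against 154 CPM (1.61 ± 0.21). Summed over the list, the level was 1399 against 1218 CPM in section 1 and 2690 against 1477 CPM in section 2. RNA of these genes was thus read in the Purkinje-rich spots after the granule-rich spots had been left out. Which cells it came from was not tested. All 12 oligodendrocyte genes were lower, with a median of -2.55. Slc17a6 was at 4.68 against 218 CPM and 3.72 against 176 CPM (-5.50 ± 0.80, adjusted p = 0.034). Meis2 (-4.63 ± 0.48), Sst (-4.24 ± 0.35), Ndst4 (-4.23 ± 0.46) and Sncg (-4.19 ± 0.28) followed in size, with smaller adjusted p-values.

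**Figure D3:**
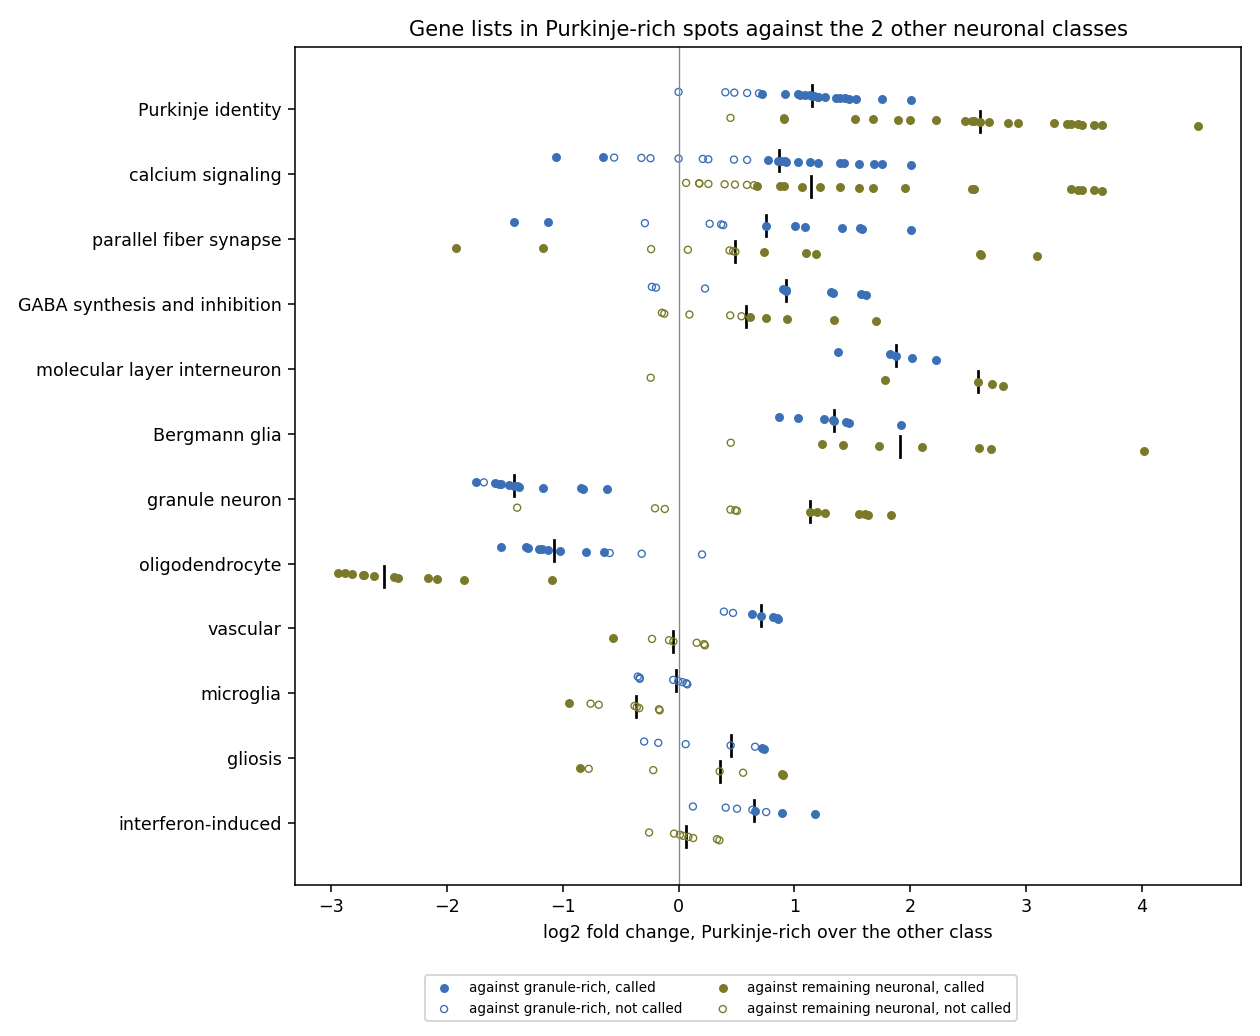
Log2 fold change of each gene (horizontal axis) of 12 gene lists (vertical axis) in Purkinje-rich spots against granule-rich and against remaining neuronal spots, with filled points for called genes, open points for the others and a black bar at each list's median. The median of the Purkinje list lies at 1.15 and 2.60, and that of the oligodendrocyte list is below 0 in both comparisons.

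Among the Purkinje-rich spots, genes varied together only in part, as correlations across spots describe. Itpr1 and Kit had a Pearson r of 0.43 over 159 spots of section 1 and 0.41 over 239 of section 2, and Itpr1 and Homer3 0.27 and 0.35. Itpr1 and Ppp1r17, both of the Purkinje list, had 0.17 and -0.02. The zebrin partners Plcb3 and Plcb4 had 0.06 and 0.05. Among the ranking genes, Pcp2 and Car8 had 0.09 and -0.03, and Pcp2 and Calb1 -0.11 and -0.06. The points of a section share 1 library, differ in depth and have sparse counts, and the ranking itself shapes relations between its own genes.

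The distance of the spots from the tumor was not part of the rule. Tumor-side spots were those with at least 20000 UMIs and under 100 CPM of Snap25 in a connected patch of at least 20, which gave 1 patch of 645 spots in section 1 and 718 spots in 2 patches in section 2. In section 2 these spots held 1875 CPM of Epcam and 1618 CPM of Krt8, which mark epithelium. In section 1 they held 6.14 and 22.7 CPM of these genes and 22406 CPM of the collagen gene Col1a1, against 186 CPM in section 2, so that the patch of section 1 had little RNA of the epithelial markers. The proliferation gene Mki67 was at 162 CPM in the patch of section 1 and 152 CPM in the tumor-side spots of section 2. Purkinje-rich and other neuronal spots of section 1 had 13.8 and 16.4 CPM of it. Near and far in section 1 therefore mean distance from a collagen-rich patch with Mki67, which the epithelial markers do not show to be tumor epithelium. Which cells made up the patch was not tested. Purkinje-rich spots lay 3 to 43 grid steps from the tumor side in section 1 (median 18) and 3 to 49 in section 2 (median 22). Those at or below the section median, 86 and 127 spots, are called near, and the other 73 and 112 far.

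Near Purkinje-rich spots carried more RNA of gliosis, interferon and microglia genes and somewhat less of Purkinje genes than far ones. Fibroblast genes were higher as well, with 3 of 5 tested called and a summed level of 857 CPM near against 305 far in section 1 and 143 against 122 CPM in section 2, and their part in the other differences was not tested. Of 11257 genes tested, 7.58% were called, 5.53% higher near the tumor and 2.04% lower, 623 and 230 genes. DESeq2 called 92 genes in all and edgeR without the section as a block 119, against 853 with it. Near and far spots also lie in different places of the cerebellum and differ in depth, with 697176 UMIs near and 318137 far in section 1 and 1901012 and 1313246 in section 2, and these differences cannot be told apart from distance. In sums over spots, fewer cells of a type and less RNA per cell cannot be told apart either.

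All 7 gliosis genes were called higher near the tumor, with a median log2 fold change of 2.20 against -0.01 over all genes. Gfap, the intermediate filament of astrocytes and Bergmann glia, was at 3249 CPM near against 348 far in section 1 and 11651 against 2327 CPM in section 2 (2.72 ± 0.17, adjusted p = 3.4e-54). Serpina3n, a protease inhibitor of reactive astrocytes, was at 535 against 27.9985 CPM and 497 against 134 CPM (2.48 ± 0.20), and Lcn2, a secreted iron carrier of reactive glia, at 645 against 12.4 CPM and 452 against 35.8 CPM (4.10 ± 0.23). Near exceeded far in both sections for each of these. DESeq2 called 3 of the 7, and edgeR called 7 of 7 after the spots within 5 steps of the tumor side were left out.

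All 8 interferon-induced genes tested were higher near the tumor, with a median of 2.06. Oasl2, an antiviral enzyme relative, was at 83.4 against 6.22 CPM in section 1 and 198 against 39.6 CPM in section 2 (2.46 ± 0.25), and Ifit1, a binder of viral RNA, at 50.3 against 6.22 CPM and 69.5 against 6.85 CPM (3.26 ± 0.39). Cxcl10, a chemokine induced by interferon, rested on 3 UMIs in the far spots of each section, with near spots 4.26-fold higher (95% counting interval 1.32 to 21.9) in section 1 and 36.8-fold (12.4 to 181) in section 2. DESeq2 called 3 of the 8 list genes.

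Of 8 microglia genes, 4 were called higher and 0 lower (median 1.24), and DESeq2 and edgeR without the block called 1 each. Csf1r, the receptor for CSF1 and IL34, was at 139 against 37.3 CPM in section 1 and 196 against 86.7 CPM in section 2 (1.34 ± 0.21). P2ry12, a receptor of resting microglia, did not pass, at 48.9 against 34.2 CPM and 48.3 against 39.6 CPM (0.35, adjusted p = 0.61). Of 6 macrophage genes tested, 4 rose, among them Spp1, osteopontin, at 996 against 131 CPM and 530 against 86.7 CPM (2.74 ± 0.19). Arg1, arginase 1, was at 145 against 18.7 CPM and 24.4 against 15.2 CPM (1.62 ± 0.32), and its log2 fold change was -0.27 without the spots within 5 steps of the tumor side.

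The other genes with the largest rise near the tumor were Timp1, Hbb-bs and Hmox1. Timp1, an inhibitor of matrix metalloproteases, was at 404 CPM near in section 1, where the far spots held 0 of 318137 UMIs, a rise of at least 42.7-fold against a floor of 3 UMIs (9.43 CPM), and at 92.9 against 8.37 CPM in section 2. Hmox1, heme oxygenase, was at 932 against 12.4 CPM and 139 against 19.8 CPM (3.97 ± 0.25). Its log2 fold change was 6.17 within section 1 and 2.78 within section 2, further apart than that SE. Hbb-bs, a β-globin gene of red cells, rested on 1 UMI in the far spots of section 1, with near spots 58.0-fold higher (95% counting interval 10.2 to 2307), and was at 53.1 against 3.80 CPM in section 2. Ttr, transthyretin of the choroid plexus, stood at 2488 CPM near in section 1, where the far spots held 1 UMI (ratio 789.9, 95% counting interval 141.6 to 31217), and at 27.6 against 25.1 CPM in section 2, so that its call rested on section 1, where 3 Purkinje-rich spots had over 1000 CPM of it.

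**Figure D4:**
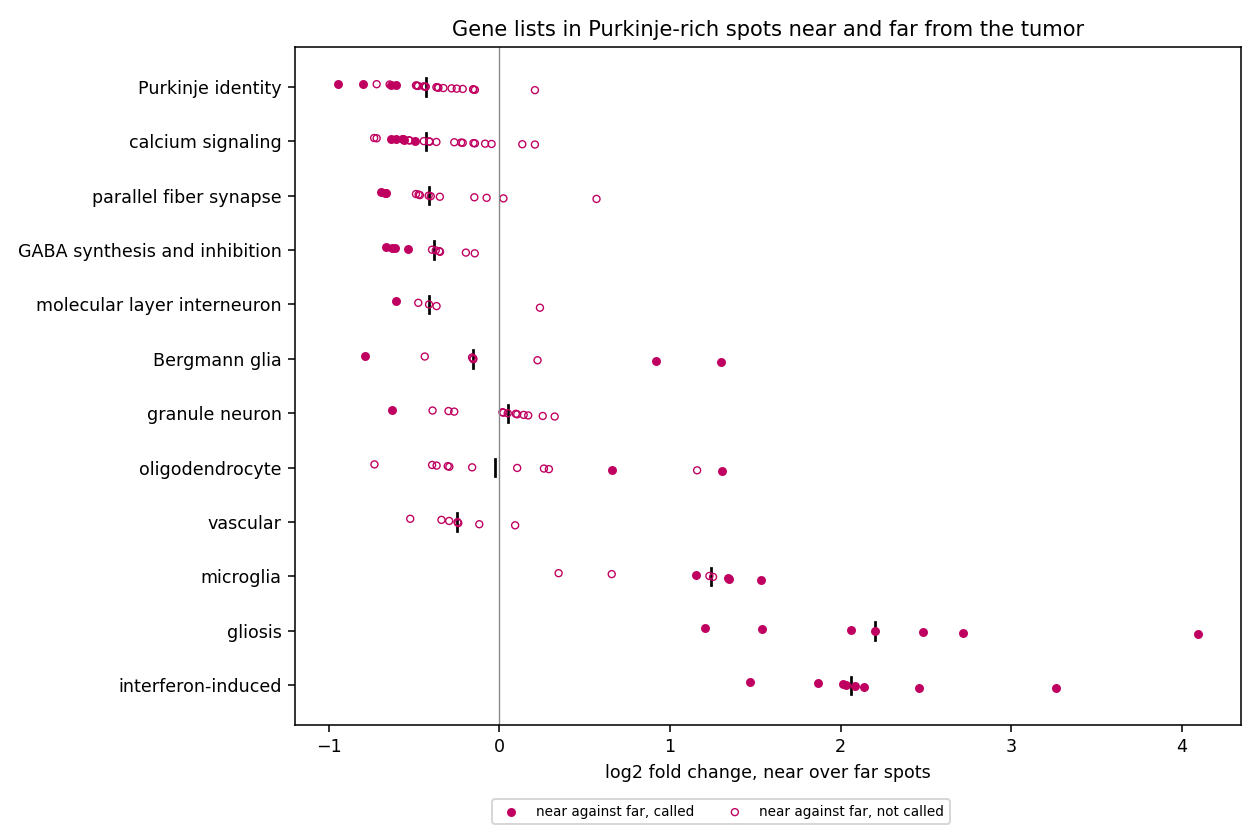
Log2 fold change of each gene (horizontal axis) of 12 gene lists (vertical axis) in Purkinje-rich spots near against far from the tumor side, with filled points for called genes, open points for the others and a black bar at each list's median. All 7 gliosis and all 8 interferon-induced genes are filled and lie above 0, with medians of 2.20 and 2.06, and the median of the Purkinje list lies at -0.43.

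Purkinje genes moved less, in spots that had all passed the ranking threshold of their section. A spot near the tumor with too little RNA of the ranking genes was outside the class, which limits a fall of Purkinje genes here. Gliosis and interferon genes had no such limit. Of the 23 listed Purkinje genes, 4 were called lower near the tumor and 0 higher, with a median of -0.43. The 4 were Gng13, Ppp1r17, Cacna1g and Homer3. Gng13 was at 1215 CPM near against 2072 far in section 1 and 981 against 2114 CPM in section 2 (-0.94 ± 0.16, adjusted p = 2e-07). Ppp1r17 was at 203 against 401 CPM and 289 against 460 CPM (-0.80 ± 0.17), and Homer3 at 428 against 507 CPM and 288 against 539 CPM (-0.60 ± 0.17). Near was below far in both sections for all 3. Itpr1, at 1928 against 2377 CPM and 2225 against 3004 CPM, did not pass (-0.37, adjusted p = 0.15). The ranking genes, given as a description, were at -0.37 for Pcp2, -0.49 for Calb1 and -0.28 for Car8. DESeq2 called 1 of the 23 lower, edgeR 2 without the spots within 5 steps of the tumor side and 0 without the block, and 0 of the 19 still tested passed when every spot was thinned to 2000 UMIs.

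In related lists some genes were called lower. Of 24 calcium signaling genes 5 were called lower and 0 higher, and 0 with DESeq2, without the block, with no filter on low counts, with the top 5% of spots, beyond 5 steps or after thinning. Lower calls numbered 3 of 13 parallel fiber synapse genes, Gria3 and Shank1 among them, and 4 of 10 inhibition genes. Pvalb was at 4091 against 4813 CPM in section 1 and 3503 against 6430 CPM in section 2 (-0.56 ± 0.15), and Aldoc at 3276 against 5239 CPM and 3065 against 4869 CPM (-0.67 ± 0.15). Gad1 was called lower at -0.53 ± 0.18 although only section 2 showed that direction, with 236 CPM near against 215 far in section 1 and 176 against 347 CPM in section 2. Among 8 Bergmann glia genes 2 rose, A2m, a protease inhibitor, by 1.30 ± 0.18 and Fabp7, a lipid binding protein, by 0.92 ± 0.22, and Gdf10 fell, at 177 against 479 CPM and 235 against 288 CPM (-0.79 ± 0.18).

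The 5 genes with the largest fall were Ptgds, Cnih3, Dbndd1, Gpr63 and Car7. Ptgds, prostaglandin D synthase, was at 93.4 against 212 CPM in section 1 and 61.0 against 311 CPM in section 2 (-1.90 ± 0.19), and Gpr63, an orphan receptor, at 51.8 against 137 CPM and 86.0 against 266 CPM (-1.56 ± 0.20). Car7, a carbonic anhydrase, was at 80.5 against 106 CPM and 27.1 against 131 CPM (-1.52 ± 0.22), Cnih3, an auxiliary subunit of glutamate receptors, at 15.8 against 31.1 CPM and 5.31 against 24.3 CPM (-1.67 ± 0.48) and Dbndd1 at 11.5 against 49.8 CPM and 13.3 against 35.0 CPM (-1.61 ± 0.38). All 5 were lower near the tumor in each section.

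By distance, the profiles of the sections differed in reach. In section 1, the summed gliosis genes of the Purkinje-rich spots were at 12706 CPM at 3 to 5 steps, 8084 CPM at 6 to 10, 1549 CPM at 11 to 20, 876 CPM at 21 to 30 and 866 CPM at 31 steps and beyond. In section 2 they were at 12104, 15142, 17209, 8575 and 1828 CPM, highest at 11 to 20 steps. Most of that sum was Gfap, at 7192, 11744, 14606, 6737 and 1035 CPM. Lcn2, another gene of the list, was instead highest in the nearest bin of section 2, at 983, 540, 192, 50.7 and 34.1 CPM. Interferon-induced genes were highest in the nearest bin of both sections, at 1796 and 1827 CPM, and at 83.8 and 261 CPM in the farthest. The summed Purkinje genes ran from 6846 CPM in the nearest bin through 8711, 12146 and 12179 to 9261 CPM in the farthest in section 1, and from 9321 through 11664, 12577 and 13121 to 17758 CPM in section 2. The bins of section 1 held 13, 18, 70, 39 and 19 Purkinje-rich spots and those of section 2 held 18, 38, 55, 45 and 83, so that values from the bins with under 20 spots, which include the nearest bin of both sections, rest on few spots.

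**Figure D5:**
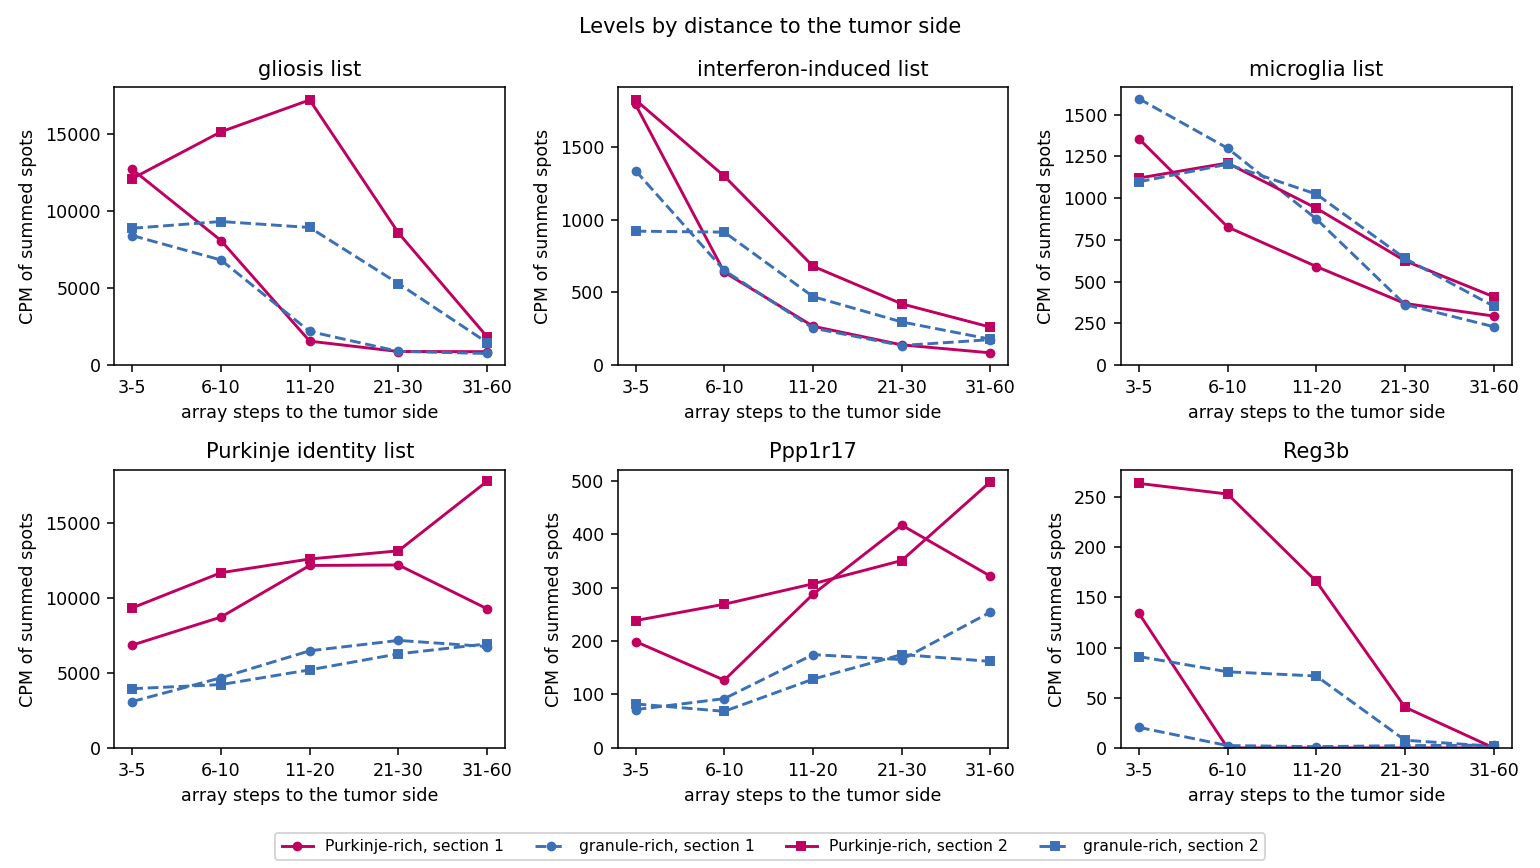
Summed CPM of gene lists and genes in Purkinje-rich and granule-rich spots by distance from the tumor side, in grid steps, for sections 1 and 2. Summed gliosis genes of Purkinje-rich spots fall from 12706 CPM at 3 to 5 steps to 1549 CPM at 11 to 20 steps in section 1. In section 2 they reach 17209 CPM at 11 to 20 steps, of which Gfap makes up 14606 CPM.

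Reg3b showed the same contrast between the sections. In the Purkinje-rich spots of section 2 it was at 264 CPM at 3 to 5 steps, 253 CPM at 6 to 10, 166 CPM at 11 to 20, 40.5 CPM at 21 to 30 and 0 beyond, and in granule-rich spots at 91.0, 75.8, 71.7, 7.67 and 1.60 CPM. In section 1 it was at 134 CPM in the nearest bin of Purkinje-rich spots and at 0 in the others, which held 165646, 396502, 165529 and 71591 UMIs. The far spots together held 318137 UMIs, which sets a floor of 9.43 CPM for their sum and not for a single bin. The near spots of section 1 thus held at least 4.41-fold more Reg3b than the far ones, and in section 2 they held 199 against 15.2 CPM.

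Whether near and far differed otherwise in Purkinje-rich than in granule-rich spots was tested as an interaction, a test chosen after the near and far values had been seen. Of 16002 genes tested, 3 were called (0.0187%), and 346 had an unadjusted p under 0.05. The gliosis list had a near-far median of 2.47 in Purkinje-rich and 2.04 in granule-rich spots, the interferon list 2.105 and 1.84, the microglia list 1.32 and 1.29 and the Purkinje list -0.37 and -0.49, with 0 genes of these lists called as different. Gfap differed by 0.36, Gng13 by -0.07 and Reg3b by -0.21 on the log2 scale (adjusted p = 1 each). A difference of these genes between the classes was not detectable at this depth and with these classes. Granule-rich spots were split at the median distance of the Purkinje-rich spots of their section. The near spots of section 1 thus had a median of 9 steps in the granule-rich and 12.5 in the Purkinje-rich class, and those of section 2 had 12 in both. The granule-rich class also held spots rich in the ranking genes, and the part of this overlap in the result was not tested. Only the Purkinje-rich class had to pass the threshold of the ranking genes, which limits its near-far change in Purkinje genes. The 3 genes called were Hbb-bs, Hba-a2 and Ccl5. None of them was called without the block, after thinning, beyond 5 steps or against remaining neuronal spots.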

How the data were processed

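Sections of 2 cerebella with tumors grown from HP organoids went through Visium CytAssist, an assay of fixed tissue that reads genes through probe pairs, and levels are not set against each other between genes. The authors detected tissue and counted UMIs with Space Ranger 2.1.1, with build mm10 in the submitters' notes, and the files they deposited give unnormalized UMI counts of 19465 genes in each spot. The spots of both sections use the same fixed set of barcodes, 3096 of them in both files, which mark positions and not shared cells. Summed libraries held 318137 to 27185300 UMIs. Symbols of 19106 genes were found in the RefSeq table, and promoters come from RefSeq in GRCm38.p6.

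Counts were summed by section and class and fitted with edgeR 4.0.16 in R 4.3.3 (TMM, filterByExpr, glmQLFit with robust estimation, glmQLFTest, Benjamini-Hochberg over all genes tested), with DESeq2 1.42.0 as an alternative. The section was the block, since all spots of a section share 1 animal. With this block the dispersion common to all genes was 0.0135, and 0.0451 when it was dropped, for Purkinje-rich against other neuronal spots. The 7 genes that choose spots stayed in library sizes and out of the tests. CPM of summed spots are scaled by TMM within each comparison, and fold changes within 1 section use CPM + 0.5. Spots, distances and figures were handled in Python 3.11.15. Fits were tested on simulated data, where 51.5% of genes changed 2-fold and 82.8% of those changed 4-fold were recovered for Purkinje-rich against other neuronal spots, with 5 false calls among 18751 genes. For near against far spots the shares were 60.0% and 96.8%, with 26 false calls among 10944 genes. Against granule-rich spots they were 39.6% and 87.6%, and against remaining neuronal spots 40.6% and 88.7%. The simulation gave every gene the same dispersion and each changed gene the same change in both sections. Its false calls therefore do not give the error rate in the real data. Counting intervals are exact, at the 95% level, and a count of 0 has a floor of 3 UMIs per library.

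Named genes were, in each comparison, the 5 called genes that rose most and the 5 that fell most on the log2 scale, provided both sections had the same sign and the gene had at least 20 CPM in the higher class of both, and members of 28 gene lists, the highest in level or with the largest changes. Ccl5, in no list, was named after its values were seen. The members and lists were chosen with earlier results of these data known. Alternatives were the replicate block, scaling, DESeq2, the count filter, thinning of spots to 2000 UMIs, the limits on UMIs, ranks, granule genes and Snap25, near and far groups, and each section alone. Some genes of the lists are counted but not reported by name here.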

Additional observations from a re-analysis of the deposited data

Results flagged for a closer look

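In 3 genes the difference between near and far spots was not the same in Purkinje-rich as in granule-rich spots, by the test of that difference itself. All 3 calls were lost without the section as a block, after thinning to 2000 UMIs, without the spots within 5 steps, and with remaining neuronal in place of granule-rich spots. The β-globin gene Hbb-bs differed by 4.34 ± 0.52 on the log2 scale (adjusted p = 1.4e-12), with a near-far log2 fold change of 4.47 in Purkinje-rich and 0.13 in granule-rich spots. It was at 190 CPM near against 2.97 far in the Purkinje-rich spots of section 1 and at 57.1 against 4.08 CPM in section 2, while granule-rich spots had 28.7 against 34.6 CPM and 11.2 against 7.07 CPM. The α-globin gene Hba-a2 differed by 2.27 ± 0.47 (adjusted p = 0.0091), with 2.75 in Purkinje-rich and 0.49 in granule-rich spots. Most of the Hbb-bs of the near Purkinje-rich spots lay in the nearest bin, with 121 of 127 UMIs of section 1 in the 13 Purkinje-rich spots at 3 to 5 steps. Granule-rich spots also had more Hbb-bs at 3 to 5 than at 6 to 10 steps, 105 against 7.58 CPM in section 1 and 52.5 against 8.10 CPM in section 2. Far granule-rich spots of section 1 at 31 to 60 steps had 109 CPM, from 40 UMIs in 55 spots. The chemokine gene Ccl5 differed the other way, by -2.39 ± 0.42 (adjusted p = 0.00011), with a near-far log2 fold change of 1.34 in Purkinje-rich and 3.73 in granule-rich spots, and its far Purkinje-rich spots of section 1 held 2 UMIs, with near spots 7.30-fold higher (95% counting interval 1.86 to 62.9). The cause of these differences was not tested.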

How the results depend on the processing

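The section was the block of each fit, and without the replicate block the counts of called genes fell to 670 against other neuronal spots, 250 against granule-rich, 1132 against remaining neuronal and 119 near against far. DESeq2 called 1081 against other neuronal spots and 92 near against far. With every spot thinned to 2000 UMIs the counts were 776 against granule-rich, 1607 against remaining neuronal and 114 near against far spots, where fewer UMIs entered. With no spot left out for granule genes they were 987 and 4779 against granule-rich and remaining neuronal spots, and Slc17a7 turned to 0.17 against other neuronal spots. Near against far, 546 genes were called with no filter on low counts, 360 with the top 5% and 1516 with the top 20% of spots, and 289 without the spots within 5 steps of the tumor, a setting chosen after seeing the data, where Arg1 turned to -0.27 and Hba-a2 to -0.085. Of 34 genes named near against far, 29 lost their call without the replicate block and 22 with DESeq2. No Purkinje-rich spot lay within 2 steps. The test of near-far differences between Purkinje-rich and granule-rich spots, whose settings were also chosen after seeing the data, called 2 genes with RLE size factors, 1 gene with library size as the scaling, 1 with DESeq2, 1 beyond 5 steps and 1 against remaining neuronal spots, the last 2 being genes other than the 3 of the full test, and 0 without the replicate block (61 at an unadjusted p under 0.05) and 0 after thinning (276). Calb1 was at 2.41 on the log2 scale when ranked without Calb1, and contacts with granule-rich spots were 27.7% at 5000 UMIs, 33.9% for the top 5% and 24.1% for the top 20%. Within each section alone, which leaves no test, 1 of 104 gene results had the other sign in a section, Gad1 near against far, which ranged from -0.98 to 0.13. All 104 were called in the fit of both sections, and genes named for the largest changes needed the same sign in both. The choice of genes thus favored agreement. Over all genes tested, 59.6% had the same sign in both sections against other neuronal spots and 70.3% against granule-rich spots. The shares were 65.0% against remaining neuronal spots and 59.7% near against far. With 2 sections, the fits had 1 to 3 residual degrees of freedom, and their p-values lean on the spread shared across genes. Near against far, the median gene's own spread between the sections carried no weight in its p-value. Lcn2 was at 5.64 within section 1 and 3.64 within section 2 there with an SE of 0.23, and Car7 at -0.39 and -2.25 with an SE of 0.22. The causes of these changes were not tested.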

Other observations

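Ppp1r1b, which encodes the dopamine signaling protein DARPP-32, and Camk2a, a kinase subunit, were put in a list of forebrain neuron genes but were higher in Purkinje-rich than in other neuronal spots. Ppp1r1b was at 309 against 111 CPM in section 1 and 351 against 89.3 CPM in section 2 (1.73 ± 0.17), and Camk2a at 93.7 against 31.5 CPM and 98.7 against 30.9 CPM (1.63 ± 0.16). The other 3 genes of that list did not pass. Gap43, a protein of growing axons, was lower in Purkinje-rich spots, at 150 against 284 CPM and 255 against 524 CPM (-0.98 ± 0.17). Of 5 immediate early genes tested near against far, 1 was called higher, 1 lower and 3 in neither direction, with a median of 0.11. The 1 called higher was Junb, at 79.1 near against 40.4 CPM far in section 1 and 84.9 against 32.0 CPM in section 2 (1.28 ± 0.26). Nr4a1 was called lower, at 12.9 against 59.1 CPM and 19.6 against 38.0 CPM (-1.31 ± 0.34). The stress gene Jun was at 164 near against 56.0 CPM far and at 97.7 against 49.5 CPM (1.17 ± 0.22).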
